A study of Rattus norvegicus with 18 samples.

Results

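The lungs described here were collected 20 hours after the last exposure to cigarette smoke. They are the 6 samples of 18 whose titles end in this time, at both doses and after 2, 7 and 13 weeks. Rats breathed diluted smoke by nose only, with total particulate matter at 300 µg per litre (the low dose) or 600 µg per litre (the high dose), and control rats breathed conditioned fresh air. Each day held 2 sessions of 1 h with 30 min of fresh air between them, on 5 days a week. RNA of whole lung was pooled from 4 rats per group, and 1 smoke pool (Cy5) was hybridised with 1 air pool (Cy3) on 2-colour arrays, so every condition had 1 sample and no replicate. The low and the high dose of a duration shared 1 air pool, which makes 3 of the 9 air pools of the series. The sources used here do not give strain, sex or age.

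For each gene the log2 ratios of smoke over air at the low and the high dose of a duration were averaged, and the 3 averages, 1 per duration, were tested against 0 with limma. A gene was called past the threshold when its Benjamini-Hochberg adjusted p over all 4046 genes tested was under 0.05. The n is 3 air pools throughout. Errors are limma's moderated standard errors (SE), on which the p-values rest, and they draw on the spread of other genes too. At 20 hours a gene's own values gave 2 degrees of freedom and the other genes 5.94. The SE of a gene with widely spread values is therefore smaller than those values alone would give. A gene's own part is the spread between these 3 durations, which holds pool differences and any change over weeks together. All smoke RNA carried the same dye, so a dye effect of constant size for a gene would add to its value against air. It would cancel in differences between hours and between doses. In whole lung, fewer cells of a type and less RNA per cell cannot be told apart.

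Smoke particles carry polycyclic aromatic hydrocarbons that bind the aryl hydrocarbon receptor (AhR), which then turns on detoxifying enzymes such as Cyp1a1. Electrophiles and oxidants in smoke release the transcription factor NRF2, which drives antioxidant genes, and epithelial cells and macrophages answer with defence proteins and chemokines. The lung also keeps a circadian clock, in which BMAL1 with CLOCK activates genes such as Dbp and the repressors Nr1d1 and Nr1d2, and these repressors in turn silence Bmal1 and Nfil3. The 20 hour samples show which of these responses still stood apart from air after 20 hours without smoke, and the study's title names such kinetics as its subject.

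Samples at 20 hours had values for 4156 to 4506 named genes, sample medians in the series lay between -0.01 and 0.01, and signal intensities were not used here, so depth over background is unknown and levels of tissue markers could not be checked. Over genes, the correlation between the 2 doses of a duration ranged from 0.341 to 0.506, and that between samples of different durations from 0.191 to 0.592. These correlations are descriptions, and the doses of a duration share an air pool.

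At 20 hours, 214 of 4046 genes (5.29%) were past the threshold, 124 higher (3.06%) and 90 lower (2.22%) than air. Of the 214, 181 had 1 sign in 6 of 6 samples, and of all genes tested 7.81% were above and 7.44% below air in all 6. The 214 were called on these same samples, which favours a shared sign, so the count of 181 is a description. Rises were led by the clock genes Dbp and Nr1d2, the iron-binding defence protein Lcn2 and the macrophage galectin Lgals3, and falls by Bmal1, the matrix protein Spon2 and Nfil3. The number called rests on all 3 durations: without the 2, 7 or 13 week samples it was 14, 6 or 9. Dbp, Nr1d2, Bmal1, Lcn2 and complement C3 were called in all 3 of these fits.

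**Figure D1:**
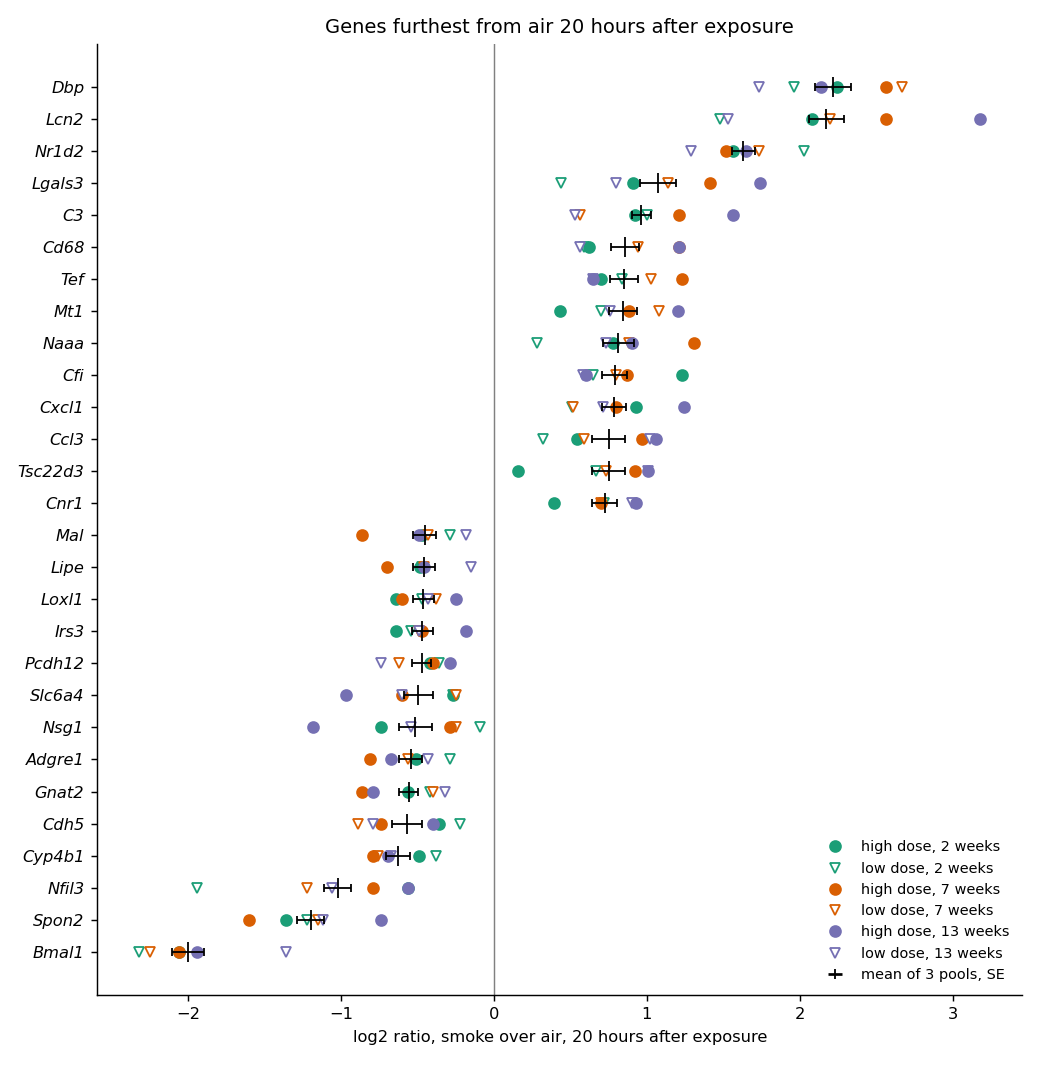
The log2 ratio of smoke over air (x axis) at 20 hours for the 14 largest rises and 14 largest falls with 1 sign in 6 of 6 samples, with 1 marker per sample (filled, high dose; open, low dose; colour, weeks) and the mean of 3 pool values with its SE. Dbp and Lcn2 stand highest at means of 2.22 and 2.17, and Bmal1 lowest at -2.00.

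The clock genes held the largest rise and the largest fall. Of 19 clock genes listed, 8 were on the array and 7 could be tested at 20 hours, of which 4 rose (Dbp, Nr1d2, Tef, Bhlhe40), 2 fell (Bmal1, Nfil3) and 1 did not pass (Nr1d1), beside 3.06% higher and 2.22% lower over all genes. Dbp encodes a PAR bZIP factor that carries the clock's rhythm to output genes. At the low dose its log2 ratio was 1.96, 2.67 and 1.73 after 2, 7 and 13 weeks, and at the high dose 2.24, 2.56 and 2.14. All 6 values lay more than 1.7 above air, with the 7 week samples highest at either dose. Dbp rose 4.65-fold (mean 2.22 ± 0.12, adjusted p = 7.74e-05).

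Nr1d2, the nuclear receptor REV-ERB beta that represses Bmal1, had log2 ratios of 2.03, 1.73 and 1.29 at the low dose after 2, 7 and 13 weeks, and of 1.56, 1.52 and 1.65 at the high dose. The doses overlapped, and Nr1d2 rose 3.1-fold (1.63 ± 0.08, adjusted p = 7.74e-05). Tef, a PAR bZIP factor like Dbp, rose by 0.85 ± 0.09 (adjusted p = 0.00494), with 6 values from 0.65 to 1.23. Bhlhe40, a repressor that competes for the sites of BMAL1, rose by 0.68 ± 0.09 (adjusted p = 0.00999), with values from 0.32 to 0.99.

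Bmal1, the activating partner of CLOCK, moved the other way. Its log2 ratio was -2.32, -2.25 and -1.36 at the low dose after 2, 7 and 13 weeks, and -2.06, -2.06 and -1.94 at the high dose. Every sample was far below air, and the low dose at 13 weeks was the nearest to it. Bmal1 fell 4-fold (-2.00 ± 0.11, adjusted p = 7.74e-05). Nfil3, which represses the sites that Dbp and Tef activate, had values of -1.94, -1.22 and -1.06 at the low dose and of -0.56, -0.79 and -0.56 at the high dose. In each duration the low dose was further below air, and over both doses Nfil3 fell 2.03-fold (-1.02 ± 0.09, adjusted p = 0.00159). Nr1d1, the partner repressor of Nr1d2, stood at -0.23 ± 0.06 and missed the threshold (adjusted p = 0.0762). Its gene overlaps Thra on the opposite strand, and which of the 2 transcripts a probe reads was not tested. Thra itself fell (-0.38 ± 0.06, adjusted p = 0.0174).

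For these genes the sequence upstream is of interest because 2 elements tie the clock loop together: the E-box CACGTG bound by BMAL1 with CLOCK, and the element TAGGTCA bound by ROR and REV-ERB receptors. The 250 bases before the gene start were read from RefSeq's promoter table (rat assembly GRCr8) and searched on both strands. Of 33469 such windows in the table, 5.59% hold CACGTG and 2.26% hold TAGGTCA. Among 6 clock genes that were called, the windows of Tef and Bhlhe40 hold CACGTG and that of Bmal1 holds TAGGTCA, while those of Dbp, Nr1d2 and Nfil3 hold neither. The 3 windows with a match are printed with it in capitals. They lie at chr7:115206577-115206826 (plus strand, Tef), chr4:143174200-143174449 (plus strand, Bhlhe40) and chr1:176766078-176766327 (plus strand, Bmal1).
Tef: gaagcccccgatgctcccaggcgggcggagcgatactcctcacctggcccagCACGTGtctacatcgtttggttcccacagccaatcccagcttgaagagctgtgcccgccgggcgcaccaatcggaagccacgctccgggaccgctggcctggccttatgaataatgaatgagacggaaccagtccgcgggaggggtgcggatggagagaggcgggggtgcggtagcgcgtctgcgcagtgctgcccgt
Bhlhe40: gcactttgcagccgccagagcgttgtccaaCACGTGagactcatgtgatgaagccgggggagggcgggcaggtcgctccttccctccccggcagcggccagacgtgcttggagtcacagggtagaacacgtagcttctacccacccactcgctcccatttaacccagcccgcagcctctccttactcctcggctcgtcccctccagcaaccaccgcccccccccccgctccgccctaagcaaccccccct
Bmal1: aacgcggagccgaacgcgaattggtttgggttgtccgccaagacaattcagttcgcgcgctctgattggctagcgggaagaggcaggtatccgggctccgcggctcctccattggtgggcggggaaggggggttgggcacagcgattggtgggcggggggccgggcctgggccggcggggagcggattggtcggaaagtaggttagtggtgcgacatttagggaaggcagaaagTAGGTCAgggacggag
The match in Tef and in Bhlhe40 lies in the outer part of its window, and that in Bmal1 next to the gene start. A match is a description of the letters, not of binding.

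The clock genes also differed between the hours, which share no animals and no air pools. The mean log2 ratio of Dbp was 0.95 at 2 hours, -1.70 at 6 hours and 2.22 at 20 hours, and that of Nr1d2 was 0.30, -1.07 and 1.63. Bmal1 ran opposite to them, at -1.20, 1.18 and -2.00. In a limma fit of the 9 pool means with hours and weeks as factors, 20 hours minus 6 hours was 3.92 ± 0.25 for Dbp, 2.70 ± 0.16 for Nr1d2 and -3.17 ± 0.20 for Bmal1 (adjusted p = 2.69e-06 for each). For 20 hours minus 2 hours, Dbp (1.27 ± 0.25, adjusted p = 0.0353) and Nr1d2 (1.33 ± 0.16, adjusted p = 0.00143) passed and Bmal1 (-0.80 ± 0.20, adjusted p = 0.126) did not. Nfil3 had too few values at the other hours for this fit. The clock time at which smoke and air rats were dissected is not among the sources used here, so a shift of the clock and a difference in collection time cannot be told apart.

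The detoxifying enzymes went nearly all the way back. Of 9 tested AhR targets and partners, 6 had been testable at 2 hours and all 6 rose there (background 5.19% higher), and 4 rose at 6 hours (2.84%). At 20 hours 1 rose and 1 fell, beside 3.06% and 2.22% of all genes. Over the 6 genes tested at every hour the median log2 ratio was 1.68 at 2 hours, 1.03 at 6 hours and 0.12 at 20 hours, beside -0.00 over all genes at 20 hours. Over all 9 tested at 20 hours it was -0.03. Cyp1a1, the cytochrome P450 that oxidises polycyclic aromatic hydrocarbons, had pool means of 4.98, 5.89 and 6.34 at 2 hours after 2, 7 and 13 weeks and of 4.26, 4.05 and 3.52 at 6 hours. At 20 hours its 6 values were -1.36 and -1.09 after 2 weeks, -0.10 and 0.10 after 7 weeks, and 0.62 and 0.51 after 13 weeks (low, then high dose). The samples thus lay on both sides of air by duration, with the doses of a duration close together, and the mean was -0.22 ± 0.27 (adjusted p = 0.654). The difference of 20 minus 2 hours was -5.96 ± 0.33 (adjusted p = 6.17e-07).

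Aldh3a1, an aldehyde dehydrogenase of the airway surface, stood at 5.33 at 2 hours and 1.95 at 6 hours. Its values at 20 hours were 0.12, 0.33 and 0.48 at the low dose and 0.70, 0.30 and -0.04 at the high dose, of which 5 of 6 lay above air. Aldh3a1 was still higher than air at 20 hours (0.32 ± 0.07, adjusted p = 0.037), 1.24-fold, after a drop of -5.01 ± 0.15 from 2 hours (adjusted p = 1.1e-09). Nqo1, a quinone reductase that AhR and NRF2 both drive, fell back from 2.71 at 2 hours to 0.30 ± 0.07 at 20 hours, where it missed the threshold (adjusted p = 0.0542), and its difference from 2 hours was -2.40 ± 0.11 (adjusted p = 5.28e-08). Cyp1b1, a P450 of the same family as Cyp1a1, stood at -0.01. The receptor gene Ahr was lower than air in 6 of 6 samples, from -0.58 to -0.18, and fell by 0.40 on the log2 scale (SE 0.07, adjusted p = 0.0199). It could not be tested at 2 hours and stood at 0.18 at 6 hours.

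**Figure D2:**
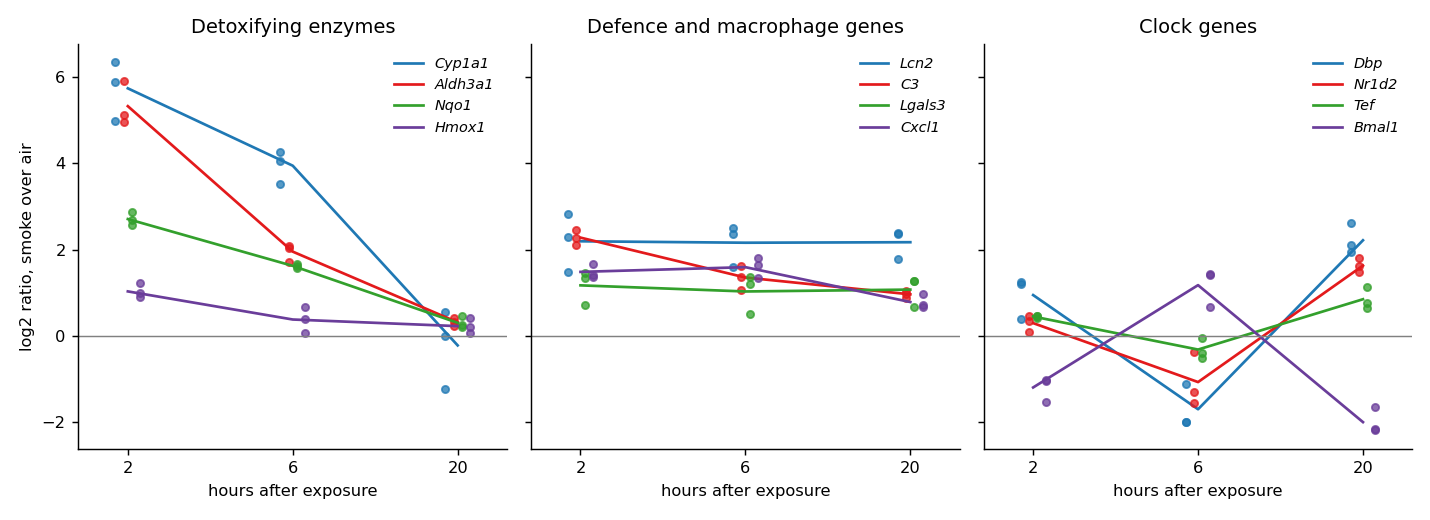
The log2 ratio of smoke over air (y axis) at 2, 6 and 20 hours after exposure (x axis, not to scale) for 4 genes in each of 3 groups, with 1 point per pool mean of both doses and a line through the mean of the 3 pools. Cyp1a1 goes from 5.74 to -0.22, Lcn2 stays near 2.2, and Dbp and Bmal1 stand on opposite sides of air at every hour.

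The promoter of Nqo1 is shown with the matches of short patterns searched for here. The 250 bases before its start (GRCr8, chr19:52220268-52220517, minus strand) are printed 5′ to 3′ along the gene. Capitals mark TGANNNNGC, where N is any base, a loose pattern for the antioxidant response element read by NRF2. They also mark GCGTG, the core of the xenobiotic response element read by AhR, here on the opposite strand. The patterns are short, and 34.7% and 25.9% of the 33469 windows hold them. Whether NRF2 or AhR binds these matches was not tested, and bases further upstream were not searched.
Nqo1: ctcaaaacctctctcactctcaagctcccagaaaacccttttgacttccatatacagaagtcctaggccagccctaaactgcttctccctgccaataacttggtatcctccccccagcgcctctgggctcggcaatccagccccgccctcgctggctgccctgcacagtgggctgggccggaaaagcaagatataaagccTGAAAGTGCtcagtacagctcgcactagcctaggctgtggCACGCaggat

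Fewer antioxidant genes of the NRF2 list were called at 20 hours than at 2 hours. Of 34 genes listed, 22 were on the array and tested. Of these 14 rose at 2 hours, 7 at 6 hours and 5 at 20 hours, with none lower. The shares of all genes called higher at these hours were 5.19%, 2.84% and 3.06%. The list's median went from 0.39 to 0.28 and 0.19. Of the 22, 5 were lower at 20 than at 2 hours past the threshold, Nqo1 among them. Gclc, the catalytic subunit of glutathione synthesis, stood at 0.94 at 2 hours and 0.12 at 20 hours (20 minus 2 hours -0.82 ± 0.11, adjusted p = 0.00254), and its regulatory subunit Gclm at 0.73 and 0.07. Thioredoxin reductase Txnrd1 stood at 0.85 and 0.10 (-0.75 ± 0.11, adjusted p = 0.00434), and the haem oxygenase Hmox1 at 1.03 and 0.23 (-0.81 ± 0.10, adjusted p = 0.00143).

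The 5 that rose at 20 hours were Mt1, Sod2, Ephx1, Txn1 and Gpx1. Mt1, a metal-binding metallothionein, had values of 0.70, 1.08 and 0.76 at the low dose and 0.43, 0.88 and 1.20 at the high dose. All were above air with the doses overlapping, and Mt1 rose 1.79-fold (0.84 ± 0.09, adjusted p = 0.00494), against 0.78 at 2 hours and 0.68 at 6 hours. The mitochondrial superoxide dismutase Sod2 rose by 0.61 ± 0.11 (values 0.12 to 1.20), the epoxide hydrolase Ephx1 by 0.54 ± 0.09, thioredoxin Txn1 by 0.48 ± 0.10 and the glutathione peroxidase Gpx1 by 0.37 ± 0.07. Mt1, Sod2 and Txn1 had also been called higher at 2 and at 6 hours, whereas Ephx1 (0.29 at 2 hours) and Gpx1 (0.09 at 2 hours, 0.13 at 6 hours) had not. Ephx1 was above its 6 hour level, where it stood at -0.15 (difference 0.70 ± 0.14, adjusted p = 0.038). The difference for Mt1, Sod2, Txn1 and Gpx1 between 20 hours and either other hour did not pass.

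Among other enzymes of this kind, 2 of 12 tested glutathione S-transferases rose, Gstp1 (0.34 ± 0.07) and Mgst2 (0.33), and 10 did not pass. Over all genes 3.06% were higher and 2.22% lower. Gstp1 was lower than at 2 hours, by -0.50, and than at 6 hours, by -0.47, both past the threshold. Of 15 tested lung P450s and related enzymes, 1 rose and 1 fell, beside the same shares of all genes. The electron donor Por rose (0.31 ± 0.07) and Cyp4b1, the main P450 of club cells and alveolar type II cells, fell. The values of Cyp4b1 were -0.38, -0.76 and -0.67 at the low dose and -0.49, -0.79 and -0.69 at the high dose. The doses lay close together in every duration, and Cyp4b1 fell 1.55-fold (-0.63 ± 0.08, adjusted p = 0.00713). It had also been called lower at 2 hours (-0.43) and at 6 hours (-0.48).

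Many genes of secreted defence proteins rose. Of 27 acute phase, complement and secreted defence genes listed, 19 could be tested and 10 rose at 20 hours (3.06% of all genes did) with none lower. At 2 hours 12 of 18 rose (5.19% of all genes) and at 6 hours 11 of 17 (2.84%). Over the 17 tested at every hour the median was 0.47 at 20 hours, 0.49 at 6 hours and 0.55 at 2 hours. Lcn2, a protein that binds bacterial siderophores, had log2 ratios of 1.48, 2.20 and 1.53 at the low dose after 2, 7 and 13 weeks and of 2.08, 2.56 and 3.18 at the high dose. The high dose was above the low dose of its duration each time. Lcn2 rose 4.51-fold (2.17 ± 0.11, adjusted p = 7.74e-05), and its means at 2 and 6 hours were 2.19 and 2.16. The difference of 20 minus 2 hours was -0.02 ± 0.13 (adjusted p = 0.971).

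C3, the central protein of complement, did not hold its level. Its values were 1.00, 0.56 and 0.53 at the low dose and 0.92, 1.21 and 1.56 at the high dose, all above air. C3 rose 1.95-fold (0.96 ± 0.06, adjusted p = 0.00032), down from 2.28 at 2 hours (difference -1.31 ± 0.13, adjusted p = 0.000185) and 1.35 at 6 hours. It was the only gene of its list whose difference from 2 hours passed. The complement protease Cfi rose by 0.79 ± 0.08 (values 0.58 to 1.23) and was one of 10 genes called at each dose alone. The complement regulator C4bpa (0.63 ± 0.08), the haemoglobin scavenger Hp (0.64 ± 0.11), the kininogen Kng2 (0.69 ± 0.08), Fetub of the fetuin family (0.66 ± 0.08), the first complement component subunit C1qa (0.61 ± 0.11), the lysozyme Lyz2 (0.47 ± 0.07) and the receptor Pigr, which carries antibodies across epithelium (0.44 ± 0.08), also rose. Pigr was below air at the low dose after 7 and 13 weeks (-0.20 and -0.18) and at 0.83 and 0.89 at the high dose.

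Of 14 tested chemokines and cytokines, 4 rose and 1 fell, beside 3.06% and 2.22% of all genes. Cxcl1, which attracts neutrophils, had values of 0.51, 0.52 and 0.71 at the low dose and 0.93, 0.80 and 1.24 at the high dose. The high dose was above the low dose in each duration. Cxcl1 rose 1.72-fold (0.79 ± 0.08, adjusted p = 0.00382) and was below its level at 2 hours (1.48, difference -0.70 ± 0.12, adjusted p = 0.0144) and at 6 hours (1.59, difference -0.81 ± 0.12, adjusted p = 0.006). Ccl3, a chemokine of macrophages, rose by 0.75 ± 0.11 with values from 0.32 to 1.06, the growth factor Csf2 by 0.70 ± 0.12 and the cytokine Il1b by 0.39 ± 0.09. Cxcl14, a chemokine of resting epithelium, fell (-0.45 ± 0.07, adjusted p = 0.0162) and was below air in 6 of 6 samples.

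Many macrophage and lysosome genes rose. Of 16 tested macrophage markers 8 rose and 1 fell, beside 3.06% and 2.22% of all genes, with a list median of 0.32 at 20 hours, 0.47 at 6 hours and 0.40 at 2 hours. Lgals3, a galectin abundant in macrophages, had values of 0.44, 1.14 and 0.80 at the low dose and 0.91, 1.41 and 1.74 at the high dose. The high dose was again above the low dose of its duration, and Lgals3 rose 2.1-fold (1.07 ± 0.12, adjusted p = 0.00494). Cd68, a lysosomal membrane protein of macrophages, had values of 0.59, 0.94 and 0.56 at the low dose and 0.62, 1.21 and 1.21 at the high dose. It rose 1.81-fold (0.86 ± 0.09, adjusted p = 0.00494). The differences of 20 minus 2 hours were -0.10 ± 0.09 for Lgals3 and -0.14 ± 0.11 for Cd68, and neither passed.

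The macrophage elastase Mmp12 rose by 0.64 ± 0.09 and the lipase Lpl by 0.52 ± 0.06. The mannose receptor Mrc1 rose by 0.28 ± 0.06. Adgre1, the gene of the macrophage surface protein F4/80, fell, with values from -0.81 to -0.29 (-0.55 ± 0.07, adjusted p = 0.0094). The receptor Csf1r stood at -0.14 ± 0.08 and did not pass. The marker list therefore held members on both sides of air.

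Of 14 tested lysosome genes 7 rose (3.06% of all genes did) and 0 fell, with a median of 0.34. At 2 hours 8 rose (5.19% of all genes) and at 6 hours 8 (2.84%). The proteases Ctsd (0.69 ± 0.08), Ctsz (0.50 ± 0.10), Ctsb (0.38 ± 0.07) and Lgmn (0.33) rose together with the membrane proteins Cd63 (0.56 ± 0.08), Lamp1 (0.33 ± 0.07) and Cd68, and 4 of these 7 (Cd68, Ctsb, Ctsd and Lamp1) also stand in the macrophage list. Naaa, a lysosomal amidase that stands in no list, had values of 0.28, 0.88 and 0.73 at the low dose and 0.78, 1.31 and 0.90 at the high dose. It was above air throughout and rose 1.76-fold (0.81 ± 0.10, adjusted p = 0.00713). Of 16 lipid and cholesterol genes 3 rose, beside 3.06% of all genes. They were the cholesterol exporter Abcg1 (0.50 ± 0.08), the nuclear receptor Pparg (0.46 ± 0.08) and Lpl.

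Counts of markers of other cells stand beside the 5.29% of all genes called. Of 15 lymphocyte markers 1 fell, near that share: the T cell coreceptor Cd4 (-0.40 ± 0.08). Of 14 endothelial and smooth muscle markers 2 fell: the endothelial cadherin Cdh5, with values from -0.89 to -0.22 (-0.57 ± 0.10, adjusted p = 0.0217), and the angiopoietin receptor Tek (-0.38 ± 0.07). Of 8 neutrophil and mast cell markers the chemokine receptor Cxcr2 rose (0.44 ± 0.08) and the ficolin Fcnb fell (-0.39 ± 0.08). Of 7 alveolar epithelial markers the surfactant proteins Sftpd (0.42 ± 0.08) and Sftpa1 (0.37 ± 0.06) rose, and of 5 airway markers the ciliogenesis factor Foxj1 (0.47 ± 0.06). Of 3 blood cell markers none passed, with values from -0.16 for Hbb to 0.16 for Pf4. The part that changes in cell numbers play in any of these values was not tested.

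Matrix genes included the second largest fall. Spon2, a secreted matrix protein that binds bacterial surfaces, had log2 ratios of -1.22, -1.15 and -1.12 at the low dose and -1.36, -1.60 and -0.74 at the high dose. The low-dose samples were nearly alike, and the high-dose samples spread to both sides of them. Spon2 fell 2.29-fold (-1.20 ± 0.09, adjusted p = 0.00074). It had stood at -1.55 at 2 hours and -0.66 at 6 hours, and it was lower at 20 hours than at 6 hours (-0.54 ± 0.10, adjusted p = 0.027). Of 26 matrix genes and proteases 4 fell (2.22% of all genes did). They were Spon2, the cross-linking enzyme Loxl1 (-0.46 ± 0.07) and the collagens Col5a2 (-0.41 ± 0.07) and Col4a1 (-0.40 ± 0.06). The matricellular protein Ccn2 (0.55 ± 0.10) was the 1 that rose, near the 3.06% of all genes. The collagens Col1a1, Col1a2 and Col3a1 had been called lower at 6 hours (-0.79, -0.37 and -0.60). At 20 hours they stood at -0.04, 0.07 and -0.175 and did not pass.

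Glucocorticoid-responsive genes rose in 6 of 13 tested cases, beside 3.06% of all genes, with none lower, among them Lcn2 and Mt1, which stand in other lists as well. Tsc22d3, the glucocorticoid-induced leucine zipper, had values of 0.67, 0.73 and 1.01 at the low dose and 0.16, 0.92 and 1.01 at the high dose. The high dose at 2 weeks was the lowest, and Tsc22d3 rose 1.68-fold (0.75 ± 0.11, adjusted p = 0.0122), beside 0.70 at 2 hours and -0.06 at 6 hours (20 minus 6 hours, adjusted p = 0.0567). The chaperone Fkbp5 (0.52 ± 0.10), the NF-kappa B inhibitor Nfkbia (0.45 ± 0.08) and the transcription factor Klf9 (0.34 ± 0.07) rose too. Klf9 had been called lower than air at 6 hours (-0.38), and 20 minus 6 hours was 0.71 ± 0.12 (adjusted p = 0.0167).

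Ribosomal protein genes stood slightly above air as a group. Of 25 tested, 5 rose (3.06% of all genes did) and 0 fell, 13 were above air in 6 of 6 samples (beside 7.81% of all genes), and the median was 0.26, beside 0.03 at 6 hours and 0.11 at 2 hours. The largest were Rps2 (0.38 ± 0.07) and Rplp0 (0.37 ± 0.07), and the list's median ranged from 0.10 to 0.41 over the 6 samples. No member of the list differed past the threshold between 20 hours and either other hour, and a dye effect was not tested for them. Of 11 reference genes 2 rose, Ppia (0.33 ± 0.06) and Rplp0, beside 3.06% of all genes. Of 16 immediate early genes 0 passed at 20 hours, and their means lay from -0.18 to 0.24. At 2 hours 4 of 15 had risen, beside 5.19% of all genes. Cell cycle (1 of 19) and p53 (1 of 23) genes passed at or near the background share, and no striated muscle marker passed (0 of 7).

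In the heat shock and unfolded protein list, 1 of 26 rose and 1 fell, near the 5.29% of all genes called. Herpud1, a protein of endoplasmic reticulum degradation, rose at 20 hours (0.50 ± 0.06), where it had been called lower than air at 6 hours (-0.36). The reticulum chaperone Hsp90b1 fell at 20 hours (-0.30 ± 0.07) and had been called higher at 6 hours (0.41). The differences of 20 minus 6 hours were 0.86 ± 0.10 (adjusted p = 0.00113) and -0.71 ± 0.10 (adjusted p = 0.00419). In the interferon and antigen presentation list 2 of 8 rose, beside 3.06% of all genes. They were Cd74 (0.48 ± 0.07) and RT1-Da (0.40 ± 0.06), which serve antigen presentation on class II molecules. Cnr1, the cannabinoid receptor gene, which stands in no list, rose by 0.72 ± 0.08 with values from 0.39 to 0.93.

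**Figure D3:**
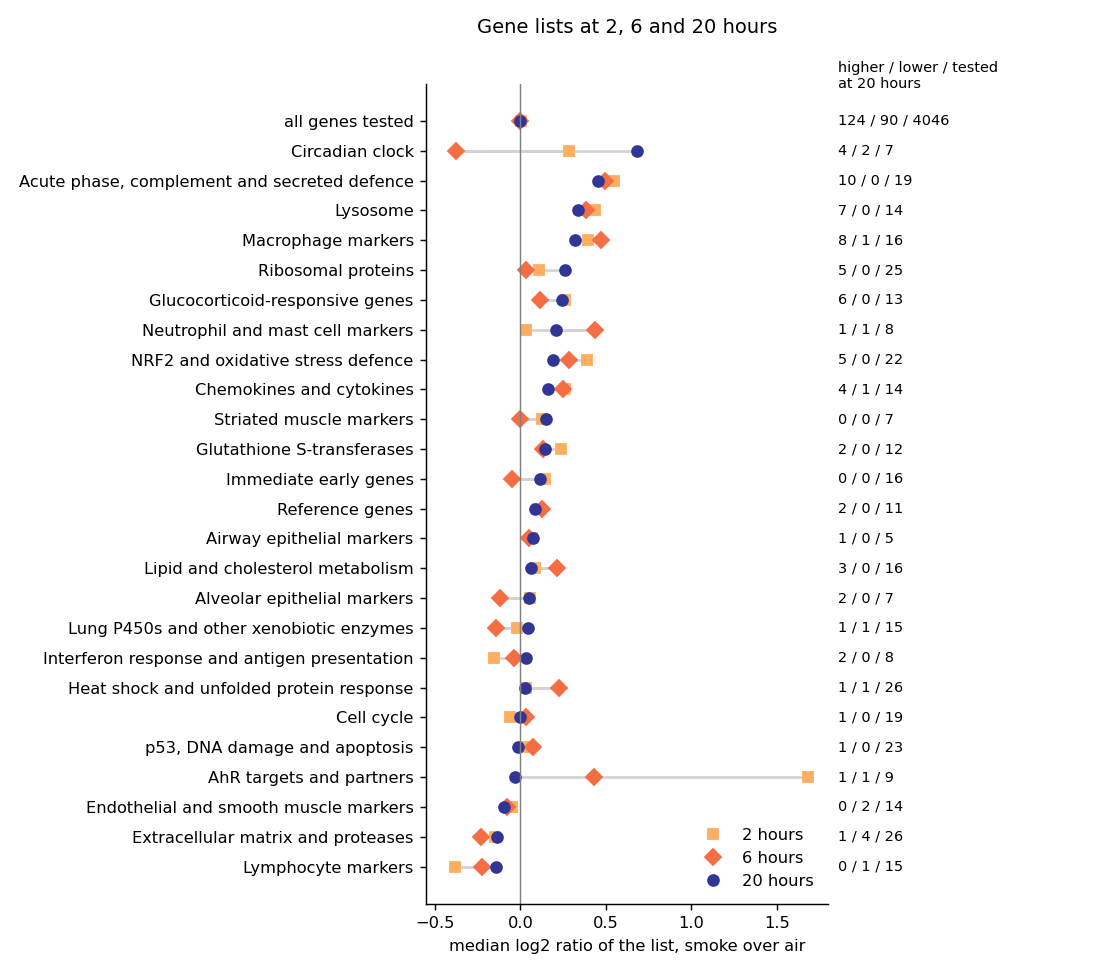
The median log2 ratio of smoke over air (x axis) of each gene list (y axis) at 2, 6 and 20 hours, over the members tested at that hour, with the genes called higher and lower and the genes tested at 20 hours on the right. The AhR list stands at 1.68 at 2 hours (6 genes) and at -0.03 at 20 hours (9 genes), while the defence, lysosome and macrophage lists lie between 0.32 and 0.45 at 20 hours.

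Persistence was then read from genes chosen at the other hours, in rats that the 20 hour samples do not include. At 2 hours 301 of 3645 genes were called (8.26%), 189 higher (5.19%) and 112 lower (3.07%). Of the 189, 162 (85.7%) had the same sign at 20 hours, 74 (39.2%) were called higher again, beside 3.06% of all genes, and 2 were called lower. Their median went from 0.49 to 0.24. Of the 112, 103 (92%) had the same sign, 30 (26.8%) were called lower again, beside 2.22% of all genes, and 0 were called higher, with a median of -0.43 at 2 hours and -0.20 at 20 hours. In 22 of the 189 and 8 of the 112 the value at 20 hours was at least as far from air as at 2 hours.

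At 6 hours 165 of 3842 genes were called (4.29%), 109 higher (2.84%) and 56 lower (1.46%). Of the 109, 51 (46.8%) were called higher at 20 hours as well, beside 3.06% of all genes, and the median of the 109 went from 0.50 to 0.34. Of the 56, 16 (28.6%) were called lower at 20 hours, beside 2.22% of all genes, with medians of -0.42 and -0.17. The genes called in the opposite direction at 20 hours were 3 of the 109 and 4 of the 56. A dye effect of constant size would add to such overlaps, and was not tested. The medians of genes chosen at 6 hours have the same limit as those of genes chosen at 2 hours.

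Read backwards, 116 of the 117 genes that were higher at 20 hours and tested at 2 hours had the same sign there, with a median of 0.45 at 2 hours and 0.42 at 20 hours. At 6 hours 103 of 119 did. Of the genes lower at 20 hours, 75 of 80 had the same sign at 2 hours and 58 of 88 at 6 hours. The median of the 80 was -0.29 at 2 hours and -0.38 at 20 hours, where the genes were chosen. How many of all genes had the same sign at 20 hours and at another hour was not counted. These counts and the same-sign counts above therefore stand without a background share. Of the 3560 genes tested at every hour, 47 were called higher and 11 lower at each of the 3 hours. Lcn2, Lgals3, C3, Cd68, Mt1, Naaa, Cfi, Cxcl1 and Ccl3 were among the 47, and Spon2, Cyp4b1, Adgre1 and Cxcl14 among the 11. Over the 3560 genes tested at every hour, the SD of the mean log2 ratio was 0.261 at 2 hours, 0.197 at 6 hours and 0.18 at 20 hours, and 20, 15 and 8 genes were at least 2-fold from air. The correlation over genes with 20 hours was 0.521 for 2 hours and 0.342 for 6 hours, as a description, since genes are not independent.

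The difference between the hours passed the threshold for few genes. Of 3840 genes, 32 (0.833%) differed between 20 and 2 hours, 7 of them higher and 25 lower at 20 hours. The lower ones were led by Cyp1a1, Aldh3a1 and Nqo1, followed by Ndrg4, a cytoplasmic protein of the NDRG family (1.72 at 2 hours, 0.05 at 20 hours), Ms4a7 (1.19 and -0.22), C3 and the flavin monooxygenase Fmo2 (0.95 and -0.00). The 7 higher ones were Nr1d2, Dbp, S100a8, S100a9, Cyp2b12, Ugt1a2 and Fgfbp1. Without the 2 or the 7 week samples the count was 15 and 14. From 6 hours, 39 genes (1.02%) differed, 15 higher and 24 lower, led by Dbp, Nr1d2, Tef and Bhlhe40 above and by Cyp1a1, Bmal1, Aldh3a1 and Nqo1 below. Without the 2, 7 or 13 week samples this count was 20, 10 and 25.

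**Figure D4:**
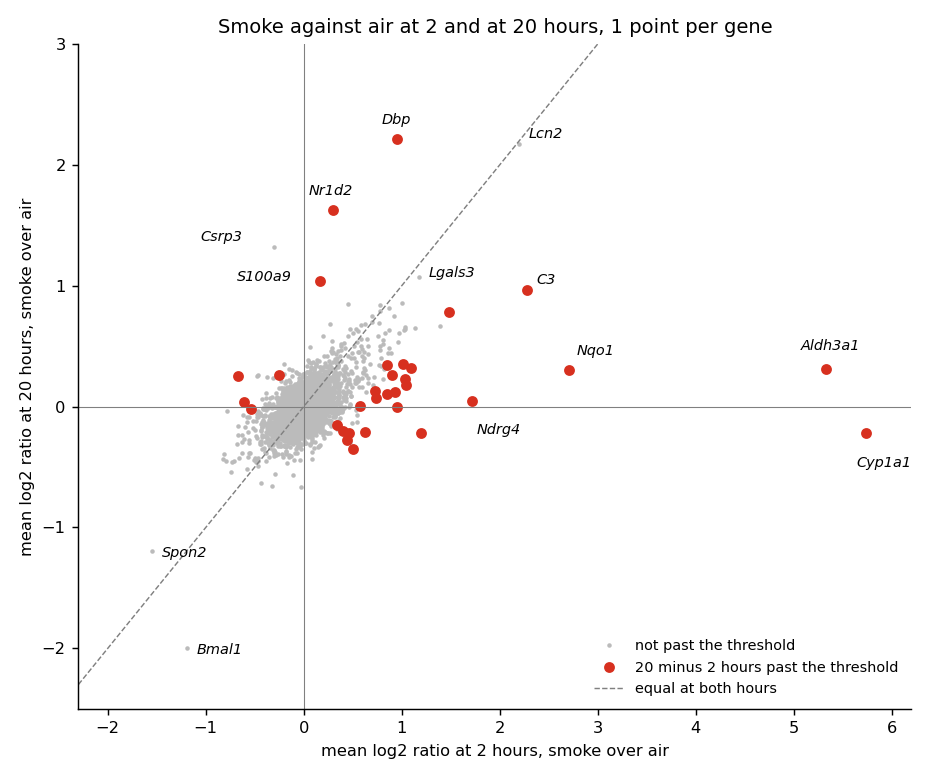
Mean log2 ratio of smoke over air at 2 hours (x axis) and at 20 hours (y axis), 1 point per gene, with red points for genes whose difference between these hours is past the threshold and a dashed line where both are equal. Lcn2, Lgals3 and Spon2 lie near the line, Cyp1a1 and Aldh3a1 lie near 0 on the y axis, and Dbp and Nr1d2 lie above the line.

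Between the doses at 20 hours, 0 of 4046 genes passed (0%) in limma's test of the 3 high minus low differences, with 163 at an unadjusted p under 0.05 and a smallest adjusted p of 0.427. A fit of all 9 such differences of the series also gave 0 at 20 hours. Of the 124 genes called higher than air, 92 (74.2%) had a higher mean at the high dose, beside 49.8% of all genes, with a median difference of 0.17. In 37 of the 124 the high dose was above the low dose in 3 of 3 durations, and in 4 it was below in all 3. Over all 4046 genes these counts were 478 and 412. Of the 90 called lower, 37 (41.1%) had a higher value at the high dose, with a median difference of -0.05. These shares are descriptions, as the genes were called on the same samples.

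Among single genes, the difference high minus low was 0.87 ± 0.21 for Lcn2, 0.71 ± 0.14 for C4bpa, 0.67 ± 0.16 for Mmp12, 0.61 ± 0.15 for Hp and 0.77 ± 0.18 for Nfil3 (adjusted p = 0.427 for each). The low dose of C4bpa stood at 0.24, 0.51 and 0.07 and the high dose at 0.77, 1.19 and 1.00. The vasoconstrictor peptide gene Edn2 had the smallest p, with -0.78 ± 0.15 (adjusted p = 0.427), at a mean of 0.22 at the low and -0.56 at the high dose. The chemokine gene Ccl5 (-0.64 ± 0.15, adjusted p = 0.427) and Spp1 (-0.60 ± 0.16, adjusted p = 0.521) were also lower at the high dose. As no gene passed, these examples were picked after their values were seen. With the low-dose samples alone 11 genes were called against air, and with the high-dose samples alone 70.

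Over the weeks of exposure no test was made at 20 hours, because each duration had 1 air pool, so the values are a description. The range of the 3 pool means had a median of 0.205 over genes and exceeded 1 for 16 genes. Cyp1a1 went from below air after 2 weeks to above air after 13 weeks, as given above. S100a9, a subunit of the neutrophil protein calprotectin, had log2 ratios of -0.67 and -0.17 after 2 weeks, 0.94 and 1.47 after 7 weeks, and 1.65 and 3.0 after 13 weeks (low, then high dose). Its partner S100a8 had -0.76 and -0.79, then 0.33 and 0.44, then 1.02 and 1.29. For both genes every sample at 2 weeks was below air and every sample at 7 and 13 weeks above it. The pool means of S100a9 followed the same order at 2 hours (-1.42, 0.29 and 1.61) and at 6 hours (0.59, 1.98 and 2.41), where animals and air pools were different. Both genes stood higher at 20 than at 2 hours, S100a9 by 0.87 ± 0.18 (adjusted p = 0.044) and S100a8 by 0.93 ± 0.12 (adjusted p = 0.00168). The neutrophil peroxidase gene Mpo lay between -0.07 and 0.38 over the 6 samples.

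Spp1, the osteopontin gene, stood at 1.26 and 1.07 after 2 weeks, 0.50 and -0.18 after 7 weeks and 1.14 and 0.21 after 13 weeks, and missed the threshold (0.67 ± 0.16, adjusted p = 0.0531). Csrp3, a gene of striated muscle, had the widest range. Its values were 1.10 and 4.07 after 2 weeks, 3.42 and 0.67 after 7 weeks, and -0.64 and -0.69 after 13 weeks, so 2 samples with different air pools, the high dose at 2 weeks and the low dose at 7 weeks, stood apart. The same 2 samples were highest for the cardiac actin Actc1 (1.32 and 0.98) and for myoglobin Mb (1.00 and 0.83), while the muscle markers Acta1 (-0.17 and -0.15) and Myl2 (-0.10 and -0.17) were near air in them. The 7 striated muscle markers had a median of 0.57 in the first and 0.14 in the second of these samples and between -0.06 and 0.11 in the other 4. How much heart or muscle tissue was taken with the lung was not tested.

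**Figure D5:**
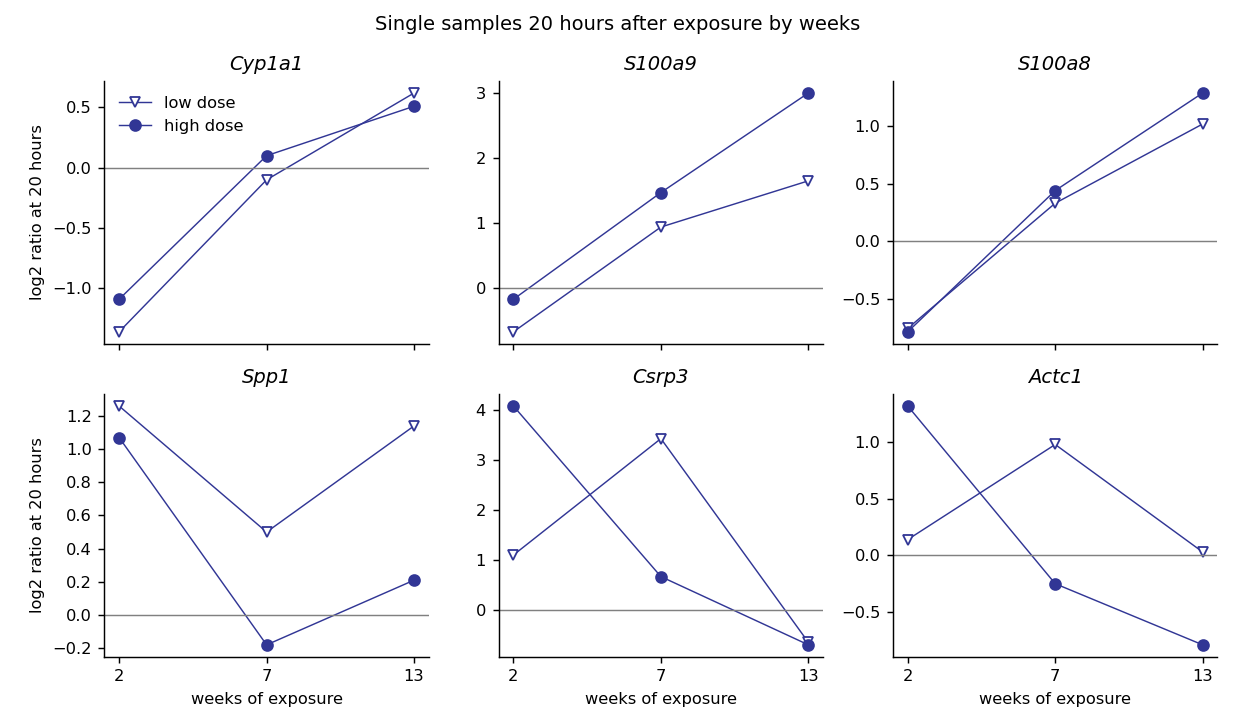
The log2 ratio of smoke over air at 20 hours (y axis, own scale per panel) after 2, 7 and 13 weeks (x axis) in single samples for 6 genes, with open triangles for the low and filled circles for the high dose; lines join samples of different animals. Cyp1a1, S100a8 and S100a9 are lowest at 2 weeks at either dose, while Csrp3 and Actc1 are highest in the high dose at 2 weeks and the low dose at 7 weeks.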

How the data were processed

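The authors deposited 1 table of log2 ratios for 18 samples, 11994 rows by spot; the scale was checked on the values, and per the labels' protocols Cy5 held smoke and Cy3 air RNA. The sources used here do not name the scanner, background correction or normalization. Rows came as 5997 duplicate spots (5996 equal within 0.0051), which were averaged, and probes of a gene were averaged too (114 of 4616 genes have more than 1), so family members that cross-hybridise, such as metallothioneins, ribosomal proteins or RT1 genes, cannot be separated. A symbol is the table's own, and 9614 of 9658 rows with one matched a rat gene identifier (GRCr8).

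Genes with a value at both doses in all 3 durations were tested at 20 hours. R 4.3.3 with limma 3.58.1 (lmFit, eBayes, two-sided) gave the tests, with 2 residual and 5.94 prior degrees of freedom at 20 hours. Differences between hours needed at least 2 of 3 values at 2 and at 6 hours. The fits were tested on simulated data first. Python 3.11.15 with pandas 2.3.3 and matplotlib 3.10.9 did the rest. Of 12 genes looked up in the promoter table, 10 had an entry.

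The members and the 26 gene lists were chosen with earlier results of these data known, so they are no independent evidence of a direction. The rule for genes named takes up to 14 rises and 14 falls of 1 sign in 6 of 6 samples, up to 4 called members per list (otherwise 2 as values), up to 8 each way between hours and up to 6 between doses, genes called at 2 or 6 hours with the largest and smallest values at 20 hours, and a set of well-known genes. Others, among them Thra, Csrp3, Gclm, Abcc4, Gja5, Stat3, Edn2, Lgmn, Ccng1, Sncg, S100g, Stt3a and the further defence, lysosome and muscle genes, were chosen after their values were seen. Alternatives covered scaling, spread, dose, missing values, probes, size, threshold, an exact test and leaving out a duration.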

Additional observations from a re-analysis of the deposited data

Results flagged for a closer look

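The hours differed by their own test, a limma fit of 9 pool means, for 32 genes between 20 and 2 hours and for 39 genes between 20 and 6 hours. Among them, 9 genes were called on opposite sides of air at 20 hours and at another hour. Against 6 hours these were Dbp (difference 3.92), Nr1d2 (2.70), Bmal1 (-3.17), Herpud1 (0.86), Klf9 (0.71), the gap junction protein Gja5 (-0.73) and Hsp90b1 (-0.71). Against 2 hours they were the efflux pump Abcc4 (0.50 at 2 hours and -0.35 at 20 hours, difference -0.85) and the signal transducer Stat3 (0.44 and -0.28, difference -0.71).

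Among the genes named by rule and the 12 with the widest range over weeks at 20 hours, 9 had both doses of 1 duration on one side of air and both of another on the opposite side, with each of these pool means at least 0.3 from air. The pool means spanned 3.25 for Csrp3, 2.75 for S100a9, 1.93 for S100a8, 1.79 for Cyp1a1 and 0.75 for the B cell receptor gene Cd79b. They spanned 1.25 for the cyclin G gene Ccng1, 1.24 for the synuclein Sncg, 1.13 for the calcium-binding protein S100g and 1.08 for the oligosaccharyltransferase subunit Stt3a. These differences between durations were not tested.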

How the results depend on the processing

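The count of 214 genes at 20 hours was 213 with each array centred, 199 with all 9 pools in 1 fit, 245 with a robust prior, 204 or 228 under other rules for missing values and 261 with every probe on its own. It moved to 11 with the low dose alone, 70 with the high dose alone, 451 with 6 ratios and the pool as a random block, 35 when 1.5-fold was asked for and 470 at an adjusted p under 0.1. Leaving out a duration gave 6 to 14. An exact sign-flip permutation called 0, as 3 values cannot give a p below 0.25. The 32 genes between 20 and 2 hours became 12 (low dose alone), 13 (high dose alone) and 30 with only these hours paired by weeks, and 14 to 30 without a duration. The 39 genes between 20 and 6 hours became 8 (low dose), 16 (high dose) and 81 with only these hours paired by weeks, and 10 to 25 without a duration. The cause of these shifts was not tested. A fit of a single dose takes 1 ratio per duration in place of an average of 2, and a fit without a duration has fewer values. The other alternatives kept these counts within 1.5 times, and the dose comparison gave 0 under each. Of the 107 to 112 named genes tested (by alternative), 68 to 73 were called at 20 hours, and no direction of these called genes was reversed. For named genes that were not called, changes of sign were not counted. Of the 73 called, 11 stayed called with the low dose alone, 38 with the high dose alone and 6 to 10 without a duration. The labels carry no replicate numbers, so the pairings are those by weeks and by shared air pool. Depth over background is unknown, so weak spots cannot be told from strong ones.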

Other observations

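Probes without a gene symbol were tested on their own at 20 hours. Of 1001, 15 were higher and 18 lower than air (3.3%, beside 5.47% of named probes), with means of those called from -0.93 to 0.84.

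Apart from Casp4, which the rule for genes named took for its difference from 6 hours, the genes named here were picked after their values were seen. They stand for no group. Pdgfra, the receptor of alveolar fibroblasts, had 6 values from -0.74 to -0.03 (-0.38 ± 0.08, adjusted p = 0.0418), and Pdgfrb, the receptor of pericytes, had values from -0.60 to -0.15 (-0.39 ± 0.07, adjusted p = 0.0274). Pdgfrb had also been called lower at 2 hours (-0.56) but stood at -0.03 at 6 hours. The endothelial adhesion gene Vcam1 fell as well (-0.33 ± 0.08, adjusted p = 0.0475). The inflammatory caspase Casp4 rose at 20 hours (0.50 ± 0.08), with values from 0.29 to 0.70, where it had stood at 0.06 at 2 hours and -0.19 at 6 hours.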
